A study of Rattus norvegicus with 30 samples.

Results

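Cyp2e1, Cyp2d2, Cyp2d3, Cyp2f4 and Cyp4f4 are cytochrome P450 genes outside the programmes driven by the receptors AhR, CAR and PXR, and they were followed here in rat hepatocytes exposed to beta-naphthoflavone (BNF). They are 5 of the 58 P450 genes measured, among 14217 genes in all. Each was taken by its symbol, and each had 1 probe set annotated to that gene alone. The genes were chosen by their change at 100 µM BNF after 48 h, so for these 5 genes values at that dose and time, and every comparison that shares its arrays or those of its vehicle, are given as description with no test. Genes outside the 5 keep their tests at 48 h. The 24 h arrays and the 1 µM arrays were not part of the rule for that choice and carry the tests. A gene that changes at 48 h may well change at 24 h too. Shares of called genes above the background can therefore follow from the choice. The arrays measured total RNA from frozen, commercially supplied primary hepatocytes of male Sprague Dawley rats, plated on collagen with a Matrigel overlay and dosed on day 3 of culture. The 6 groups were vehicle (1% DMSO), 1 µM BNF and 100 µM BNF, each at 24 and at 48 h. The sample titles give the DMSO content of the vehicle wells only. Every group held 5 arrays, 30 in all. Each array came from a separate culture well, and nothing in the labels links a well to an animal. A p-value here therefore reflects how far wells differ from each other.

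Cytochrome P450 enzymes are haem proteins of the endoplasmic reticulum or mitochondria that oxidise drugs, pollutants, fatty acids and steroids. Those of the endoplasmic reticulum receive electrons from P450 oxidoreductase (Por), helped by cytochrome b5 (Cyb5a). BNF is a ligand of AhR, the receptor that switches on the Cyp1 genes. Cyp2e1 oxidises ethanol, acetaminophen and other small molecules and is known from the hepatocytes around the central vein. The Cyp2d enzymes hydroxylate basic drugs such as debrisoquine, a reaction that Cyp2d2 carries out in the rat. Cyp4f4 hydroxylates leukotriene B4 and arachidonic acid at the end of the chain. Cyp2f enzymes activate naphthalene and styrene and are best known from lung. P450 messages are known to fall as hepatocytes stay in culture.

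The promoter windows of Cyp2e1, Cyp2d2 and Cyp2d3, which fell, and of Cyp2f4, the gene that rose, are shown first. Their sequences can then be set beside the opposite changes below. RefSeq (assembly GRCr8) gave a window for 4 of the 5 genes, and no window was given for Cyp4f4, which also fell. Each window runs from 250 bases before to 50 bases after the transcription start, written 5′ to 3′ on the strand of the gene. The windows lie at chr1:205269717-205270016 on the plus strand for Cyp2e1 and at chr7:115819232-115819531 on the minus strand for Cyp2d2. They lie at chr7:115802093-115802392 on the minus strand for Cyp2d3 and at chr1:91543518-91543817 on the plus strand for Cyp2f4. No base is in capitals, since no searched motif was found in these windows.
Cyp2e1: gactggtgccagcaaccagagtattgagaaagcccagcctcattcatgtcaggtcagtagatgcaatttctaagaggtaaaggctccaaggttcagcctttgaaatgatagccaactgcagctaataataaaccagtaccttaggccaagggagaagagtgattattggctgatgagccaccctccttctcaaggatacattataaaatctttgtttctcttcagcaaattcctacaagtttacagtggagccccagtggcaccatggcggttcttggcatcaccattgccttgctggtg
Cyp2d2: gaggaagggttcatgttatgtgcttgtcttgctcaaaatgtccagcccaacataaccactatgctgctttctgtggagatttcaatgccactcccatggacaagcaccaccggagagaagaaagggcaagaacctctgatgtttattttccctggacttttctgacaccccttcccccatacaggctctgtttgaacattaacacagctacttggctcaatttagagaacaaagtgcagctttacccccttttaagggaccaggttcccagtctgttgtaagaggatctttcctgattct
Cyp2d3: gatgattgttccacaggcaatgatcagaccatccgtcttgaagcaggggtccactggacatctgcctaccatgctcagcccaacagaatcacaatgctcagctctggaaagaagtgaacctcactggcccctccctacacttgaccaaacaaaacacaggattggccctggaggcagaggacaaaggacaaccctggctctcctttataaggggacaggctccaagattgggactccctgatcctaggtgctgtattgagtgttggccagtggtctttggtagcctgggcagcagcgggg
Cyp2f4: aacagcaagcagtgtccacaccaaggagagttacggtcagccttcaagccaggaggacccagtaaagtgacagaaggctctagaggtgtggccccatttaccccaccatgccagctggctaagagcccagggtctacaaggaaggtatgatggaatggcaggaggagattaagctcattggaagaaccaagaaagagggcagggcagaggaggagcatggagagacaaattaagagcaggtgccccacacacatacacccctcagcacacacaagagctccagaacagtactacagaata

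Both strands of each window were searched for 2 motifs. The AhR core GCGTG was in 0 of the 4 windows, and 29.7% of all 33469 promoter windows hold it. The antioxidant element core TGACNNNGC was in 0 of the 4, against 12.1% of all windows. These letters describe a short window only and say nothing about binding. Cyp2d2 and Cyp2d3 lie on the same strand of chromosome 7, and Cyp2e1 and Cyp2f4 on chromosome 1.

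Values are MAS5 signals, a linear brightness per probe set that the authors had scaled to a common level on every array. A gene's signal can be compared between arrays but not with that of another gene. Changes are log2 fold changes with their standard error (SE) from one limma model of all 30 arrays, adjusted by Benjamini-Hochberg over 14217 genes, and a change is called at an adjusted p of 0.05. The number of arrays limits the precision. Array medians ran from 336.5 to 427.9, and the 3′ minus 5′ differences of the RNA control probe sets were 0.09 to 0.21 log2 units for Gapdh and 1.21 to 1.56 for beta-actin over all 30 arrays. Cyp1a1, the classical AhR target, was higher at each dose and time, by 1.94 and 2.36 log2 units at 1 and 100 µM after 24 h (limma adjusted p = 2.49e-07 and 2.47e-10) and by 1.32 and 2.50 after 48 h (limma adjusted p = 0.000365 and 5.03e-11). The 9 measured hepatocyte markers, albumin and other plasma proteins among them, had mean signals from 23908 (Apob) to 74561 (Alb). In RNA from whole wells, fewer cells of a type and less RNA per cell cannot be told apart.

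At 24 h, 100 µM BNF lowered Cyp2e1, Cyp2d2, Cyp2d3 and Cyp4f4 and raised Cyp2f4. The falls ran from 1.51-fold for Cyp2d3 to 3.71-fold for Cyp4f4, and Cyp2f4 rose 1.5-fold. So 4 of 5 genes were called lower, where 10.4% of all genes were, and 1 of 5 was called higher, where 10.7% were. Since the genes were chosen at the same dose after 48 h, these shares are a description and no measure of chance. For all 5 genes the 5 treated arrays lay apart from the 5 vehicle arrays. Among all genes, 7.92% lay wholly below and 6.89% wholly above vehicle in this way. With each array centred on its median, the background became 10.5% lower and 4.56% higher. All 5 genes belong to the 7109 genes at or above the median mean signal, and of those 18.8% were called lower and 20.0% higher when tested alone.

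Cyp2e1, the ethanol-oxidising P450, had signals of 8453, 7764, 9543, 8304 and 10292 in vehicle at 24 h. At 1 µM the arrays read 6183, 6377, 6853, 6181 and 6176. At 100 µM they read 4496, 4345, 5027, 4194 and 4087. The 3 groups did not overlap, and the level stepped down with dose. The fall was 0.48 log2 units at 1 µM (log2 fold change -0.48, SE 0.075, limma adjusted p = 0.000196). At 100 µM it was 2.0-fold (log2 fold change -1.0, SE 0.075, limma adjusted p = 1.96e-11). The doses differed from each other by -0.52 log2 units (100 over 1 µM, limma adjusted p = 1.62e-05).

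Cyp2d2, the debrisoquine hydroxylase, had signals of 10848, 11623, 10363, 11258 and 11619 in vehicle at 24 h. At 1 µM the arrays read 8116, 9107, 8468, 7540 and 8435. At 100 µM they read 7467, 6615, 6929, 6089 and 5633. The arrays of both doses lay below every vehicle array, and the highest 100 µM array lay just below the lowest 1 µM array. The log2 fold change was -0.42 at 1 µM (SE 0.09, limma adjusted p = 0.00444) and -0.77 at 100 µM (SE 0.09, limma adjusted p = 9.57e-08). The dose difference was -0.35 (limma adjusted p = 0.0103), which after median centring of the arrays became -0.33 and was no longer called (limma adjusted p = 0.0864).

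Cyp2d3, the neighbour of Cyp2d2, had signals of 2879, 2745, 3440, 3127 and 3215 in vehicle at 24 h. At 1 µM the arrays read 2655, 3824, 3184, 2477 and 2603. At 100 µM they read 2216, 2290, 2354, 2048 and 1445. The 1 µM arrays spread across the vehicle range, and the 100 µM arrays lay below both other groups. The log2 fold change was -0.08 at 1 µM (SE 0.121, limma adjusted p = 0.813) and -0.59 at 100 µM (SE 0.121, limma adjusted p = 0.000439). The doses differed by -0.51 (limma adjusted p = 0.00552). The lowest array, 1445, stood apart from its group, and without it the fall at 100 µM was 0.47 log2 units (log2 fold change -0.47, limma adjusted p = 0.0025). Cyp2d genes are close relatives, so a probe set may also take up RNA of a paralogue. Probe sets annotated to several symbols were left out.

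Cyp4f4, the leukotriene hydroxylase, had signals of 2692, 3548, 3027, 3206 and 3235 in vehicle at 24 h. At 1 µM the arrays read 2629, 2219, 1617, 1332 and 1467. At 100 µM they read 830, 944, 1029, 747 and 708. The groups did not overlap, but the 1 µM arrays were spread widely, from just under the lowest vehicle array to well below it. The log2 fold change was -0.80 at 1 µM (SE 0.16, limma adjusted p = 0.00243) and -1.89 at 100 µM (SE 0.16, limma adjusted p = 2.11e-10). The doses differed by -1.09 log2 units (limma adjusted p = 2.25e-05).

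Cyp2f4, the naphthalene-activating P450, had signals of 4914, 5465, 4954, 4591 and 5312 in vehicle at 24 h. At 1 µM the arrays read 5331, 6168, 5068, 5217 and 4810. At 100 µM they read 7721, 7362, 7642, 6915 and 8173. The 1 µM arrays overlapped with vehicle, and all 100 µM arrays lay above both. The log2 fold change was 0.07 at 1 µM (SE 0.096, limma adjusted p = 0.772), and -0.01 after median centring of the arrays. At 100 µM it was 0.58 (SE 0.096, limma adjusted p = 2.53e-05), and the doses differed by 0.51 (limma adjusted p = 0.000535).

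**Figure D1:**
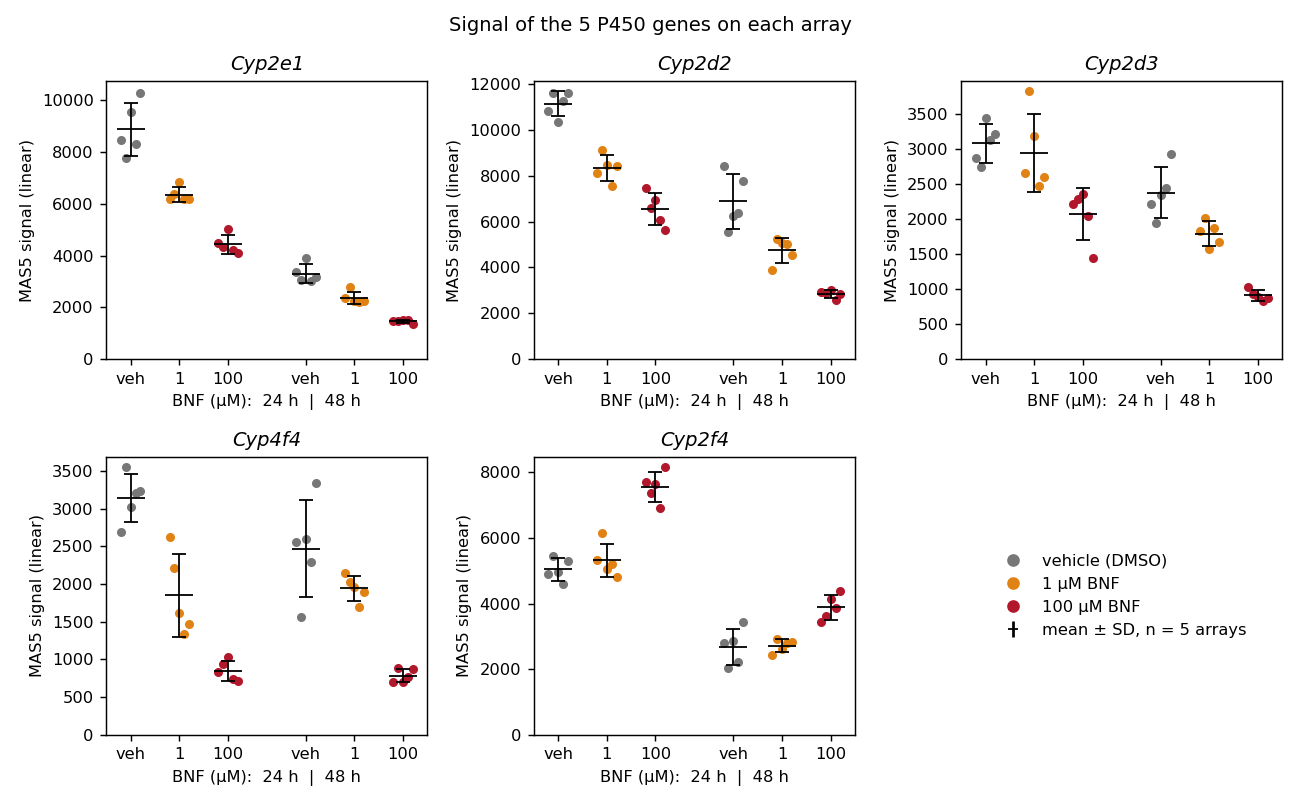
MAS5 signal of each gene on each array (points; y axis, linear, from 0) by BNF dose at 24 and 48 h (x axis), with the mean and SD of 5 arrays. Cyp2e1, Cyp2d2, Cyp2d3 and Cyp4f4 are lower at 100 µM than in vehicle at both times, and Cyp2f4 is higher at 100 µM while its level at 48 h is below that at 24 h in all groups.

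At 1 µM and 24 h, 3 of 5 genes were called lower (Cyp2e1, Cyp2d2 and Cyp4f4), where 2.4% of all genes were, and 0 were called higher, where 1.91% were. The same 3 genes had arrays wholly below vehicle, as did 2.85% of all genes. With each array centred on its median the background at this dose was 2.42% lower and 0.359% higher, and among the 7109 brighter genes it was 5.54% lower and 4.59% higher. Between the doses at 24 h, 4 of 5 genes were called lower at 100 than at 1 µM and 1 of 5 higher, where 4.57% and 3.14% of all genes were, and 9.33% and 7.43% of the brighter genes. This comparison shares its 100 µM arrays with the comparison against vehicle.

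The sizes of the changes differed between the genes. Each array's difference between 2 genes was compared between treated and vehicle arrays at 24 h by a two-sided exact permutation test, a comparison chosen after the data were seen. With 10 pairs at each dose, 20 p-values were adjusted together, and the smallest p possible was 0.00794 (adjusted p = 0.0144). At 100 µM, 8 of 10 pairs differed. Cyp4f4 fell further than Cyp2e1 by 0.89 log2 units, further than Cyp2d2 by 1.12 and further than Cyp2d3 by 1.30, each at the smallest p (exact permutation adjusted p = 0.0144). Cyp2e1 fell further than Cyp2d3 (difference -0.41, exact permutation adjusted p = 0.0366). The pairs that did not pass were Cyp2e1 with Cyp2d2 (-0.23, exact permutation adjusted p = 0.0847) and Cyp2d2 with Cyp2d3 (-0.18, exact permutation adjusted p = 0.1774). Cyp2f4 differed from each of the other 4 genes. It rose and they fell at 100 µM and 48 h, where the genes were chosen, so these 4 pairs are no separate evidence. Cyp4f4 also fell furthest at that dose and time (log2 fold change -1.62), so its pairs are no separate evidence either. No share was taken from pairs of other genes, so the count of pairs is a description. At 1 µM, 6 of 10 pairs differed, and the neighbours Cyp2d2 and Cyp2d3 were among them (-0.34, exact permutation adjusted p = 0.0454).

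**Figure D2:**
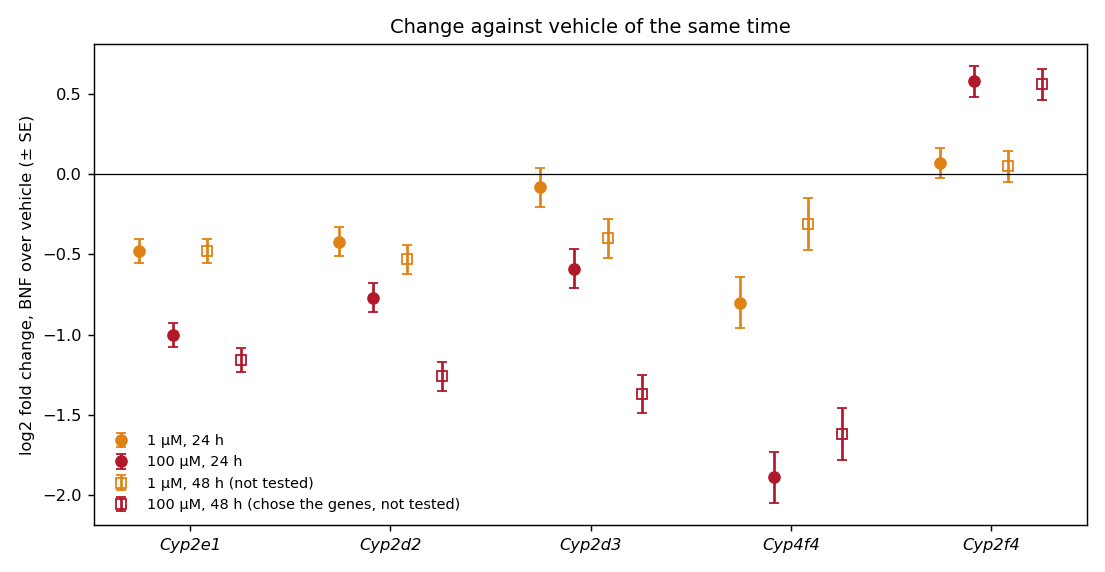
Log2 fold change of each gene over the vehicle of the same time (y axis, ± SE) at 1 and 100 µM BNF. Filled circles are 24 h and open squares are 48 h, which is not tested; at 24 h and 100 µM the values run from -1.89 for Cyp4f4 to 0.58 for Cyp2f4.

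The 48 h arrays at 100 µM are the ones the genes were selected on, and their values follow as description. Cyp2e1 read 3382, 3035, 3908, 3013 and 3170 in vehicle, 2353, 2786, 2261, 2216 and 2239 at 1 µM, and 1481, 1454, 1505, 1521 and 1374 at 100 µM. Cyp2d2 read 8442, 5566, 6225, 6391 and 7777 in vehicle, 3897, 5238, 5082, 5008 and 4523 at 1 µM, and 2911, 2869, 3036, 2587 and 2851 at 100 µM. Neither gene had overlapping groups at 48 h. Cyp2d3 read 2215, 1944, 2350, 2450 and 2929 in vehicle, 1836, 2022, 1570, 1868 and 1674 at 1 µM, and 1035, 933, 885, 835 and 869 at 100 µM. Cyp4f4 read 2559, 1567, 2595, 2292 and 3346 in vehicle, 2151, 2023, 1955, 1694 and 1896 at 1 µM, and 698, 889, 703, 772 and 873 at 100 µM. For both, the 1 µM arrays overlapped with vehicle and the 100 µM arrays lay below. Cyp2f4 read 2794, 2029, 2855, 2233 and 3430 in vehicle, 2439, 2915, 2607, 2788 and 2838 at 1 µM, and 3441, 3627, 4128, 3866 and 4389 at 100 µM. Its lowest 100 µM array lay just above its highest vehicle array.

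At 48 h the log2 fold changes at 100 µM were -1.16 for Cyp2e1, -1.26 for Cyp2d2, -1.37 for Cyp2d3, -1.62 for Cyp4f4 and 0.56 for Cyp2f4. These are folds of 2.24, 2.39, 2.59 and 3.07 lower and 1.48 higher. At 1 µM they were -0.48, -0.53, -0.40, -0.31 and 0.05 in the same order. The background calls at 100 µM and 48 h were 8.62% lower and 8.79% higher, with 6.68% and 6.66% of genes not overlapping in those directions. At 1 µM they were 0.521% and 0.288%. The effect of 100 µM at 48 h minus that at 24 h was -0.17 (SE 0.11) for Cyp2e1, -0.48 (SE 0.13) for Cyp2d2, -0.78 (SE 0.17) for Cyp2d3, 0.27 (SE 0.23) for Cyp4f4 and -0.02 (SE 0.14) for Cyp2f4.

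Levels were also compared between 24 and 48 h at a fixed dose. The test falls on the 1 µM groups, which the choice did not use. There 4 of 5 genes were called lower at 48 than at 24 h, where 6.72% of all genes were, and 13.6% of the brighter genes. Cyp2e1 fell 2.69-fold (log2 fold change -1.43, limma adjusted p = 1.03e-14), Cyp2f4 1.95-fold (-0.97, limma adjusted p = 7.6e-09), Cyp2d2 1.76-fold (-0.82, limma adjusted p = 6e-08) and Cyp2d3 1.63-fold (-0.70, limma adjusted p = 8.51e-05). Cyp4f4 had a log2 difference of 0.11 (limma adjusted p = 0.741). In vehicle, with no test, the differences were -1.43 for Cyp2e1, -0.71 for Cyp2d2, -0.38 for Cyp2d3, -0.38 for Cyp4f4 and -0.94 for Cyp2f4. At 100 µM, again with no test, they were -1.59, -1.19, -1.17, -0.11 and -0.96 in the same order.

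**Figure D3:**
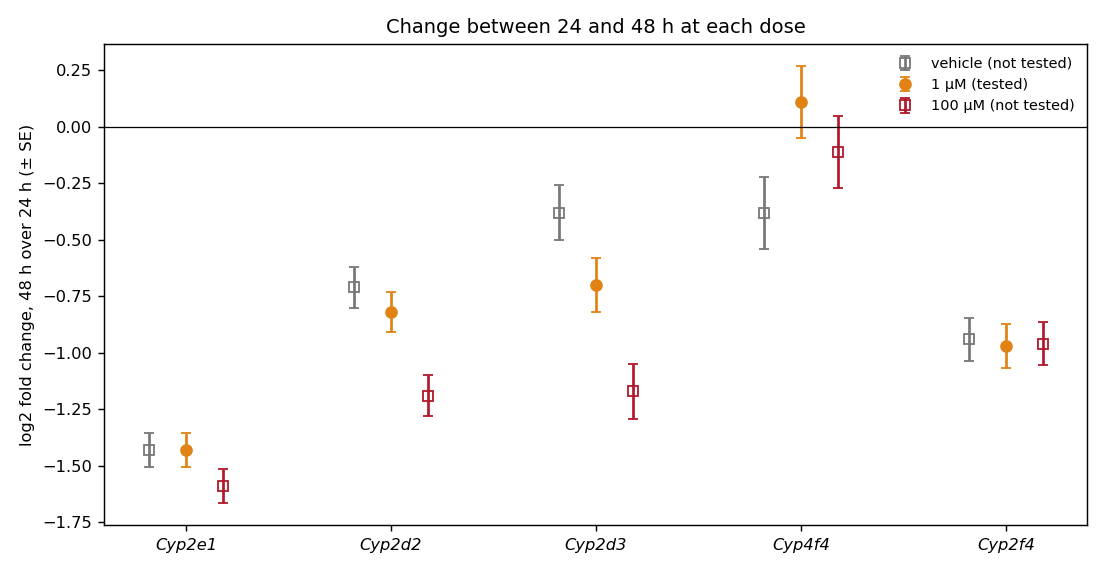
Log2 fold change of each gene from 24 to 48 h (y axis, ± SE) in vehicle, at 1 µM and at 100 µM BNF; only the 1 µM values (filled circles) were tested. Cyp2e1 lies between -1.59 and -1.43 and Cyp2f4 between -0.97 and -0.94 at all 3 doses, while Cyp2d2 and Cyp2d3 are lowest at 100 µM.

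The order of the 6 group levels differed from gene to gene. Cyp2e1 fell in the order vehicle, 1 µM and 100 µM at 24 h, then vehicle, 1 µM and 100 µM at 48 h, and no neighbours in that order overlapped. At 100 µM and 48 h it stood at 16.6% of its 24 h vehicle level, 6.02-fold lower. Cyp2d2 had the order vehicle and 1 µM at 24 h, vehicle at 48 h, 100 µM at 24 h, then 1 µM and 100 µM at 48 h. Its 48 h vehicle arrays overlapped with both neighbours in that order. Cyp2d3 had the same order, and only its lowest group, 100 µM at 48 h, lay apart from the group next to it. At 100 µM and 48 h Cyp2d2 stood at 25.6% and Cyp2d3 at 29.6% of the 24 h vehicle level. Cyp4f4 split into 4 groups of vehicle and 1 µM arrays, each overlapping with the next, and both 100 µM groups, which overlapped with each other. Its level at 100 µM and 48 h was 25.0% of 24 h vehicle. Cyp2f4 was highest at 100 µM and 24 h, then came the overlapping 1 µM and vehicle groups at 24 h, then 100 µM at 48 h, then the overlapping 1 µM and vehicle groups at 48 h. It ended at 76.9% of 24 h vehicle.

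Across the 30 arrays Cyp2e1, Cyp2d2 and Cyp2d3 varied together. Pearson's r of log2 signal was 0.95 for Cyp2e1 with Cyp2d2, 0.94 for Cyp2d2 with Cyp2d3 and 0.89 for Cyp2e1 with Cyp2d3. For Cyp4f4 it was 0.55 with Cyp2e1, 0.68 with Cyp2d2 and 0.72 with Cyp2d3. For Cyp2f4 it was 0.51, 0.36 and 0.23 in the same order. For Cyp4f4 with Cyp2f4 it was -0.31. These arrays share the dose and time groups and the scaling of each array, so r is a description of the group pattern. The 30 arrays include those on which the genes were chosen. Among the brighter genes (mean log2 signal above the median of genes), the 3 most like Cyp2e1 were Lonp2, Apon and Cideb (r 0.978, 0.975 and 0.97). Those most like Cyp2d2 were Rdh7, F9 and Scd (r 0.973, 0.969 and 0.969), and those most like Cyp2d3 were Rdh7, Gpc4 and Apoc2 (r 0.96, 0.95 and 0.949). F9 encodes coagulation factor IX and Scd a fatty acid desaturase. Those most like Cyp4f4 were Ephx2, a soluble epoxide hydrolase, Pecr and Edem1 (r 0.957, 0.955 and 0.953). Those most like Cyp2f4 were Fbxo31, Mospd3 and Slc25a46 (r 0.941, 0.922 and 0.918). Pearson's r takes no account of the size of a change. At 100 µM and 24 h, Lonp2 had a log2 fold change of -0.18, where Cyp2e1 had -1.0. Rdh7 had -0.78, where Cyp2d2 had -0.77.

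Of the 53 other P450 genes, 7 were called higher and 14 lower at 100 µM and 24 h, with a median log2 fold change of -0.10, where the median of all genes was 0.04. Among all genes 10.7% were called higher there and 10.4% lower, and among the brighter genes 20.0% and 18.8%. By log2 fold change in that comparison, Cyp4f4 ranked 2 from the lowest of 58, Cyp2e1 6, Cyp2d2 10 and Cyp2d3 14, and Cyp2f4 ranked 9 from the highest. At 1 µM and 24 h, 4 of the 53 were called higher and 3 lower, with a median of -0.05, where 1.91% and 2.4% of all genes were called. At 48 h the counts were 3 higher and 1 lower at 1 µM and 7 higher and 13 lower at 100 µM. The shares of all genes called higher and lower were then 0.288% and 0.521% at 1 µM, and 8.79% and 8.62% at 100 µM.

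**Figure D4:**
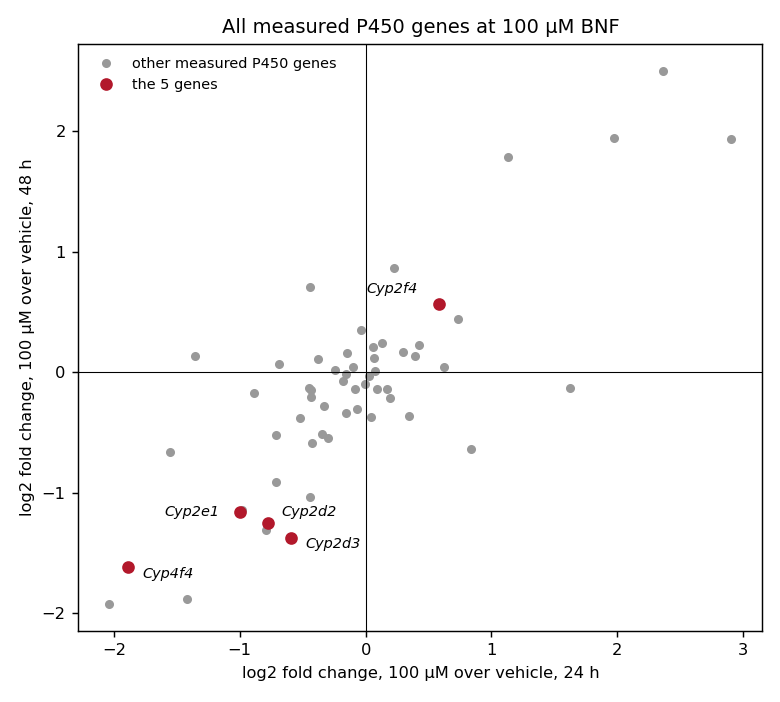
Log2 fold change of 100 µM BNF over vehicle for all 58 measured P450 genes at 24 h (x axis) and 48 h (y axis), each against its own vehicle arrays. The 4 genes that fell lie in the lower left among the lowest P450 genes and Cyp2f4 lies in the upper right; the 48 h axis chose the 5 genes.

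Relatives in the same subfamilies follow. Their counts at 100 µM and 24 h stand beside 10.7% of all genes called higher and 10.4% lower. Cyp2d4, the other Cyp2d gene measured by a probe set of its own, fell by 0.52 log2 units at 100 µM and 24 h (log2 fold change -0.52, limma adjusted p = 0.00681), and its other probe set gave -0.74 (limma adjusted p = 0.00451). Of 4 other Cyp4f genes, 1 was called, Cyp4f1 (-0.71, limma adjusted p = 1.25e-07). Cyp4f5, Cyp4f6 and Cyp4f17 gave -0.44, -0.04 and 0.13 (limma adjusted p = 0.483, 0.807 and 0.741). Cyp4f6 was higher at 100 µM and 48 h (0.35, limma adjusted p = 0.000564), a time at which Cyp4f4 lay far below vehicle. Of 7 genes in the Cyp2g, Cyp2j, Cyp2s, Cyp2t and Cyp2u subfamilies, 0 were called higher and 3 lower at 100 µM and 24 h. These were Cyp2j3 (-0.43), Cyp2j10 (-0.43) and Cyp2j4 (-0.16), epoxygenases of arachidonic acid. That list leaves out the Cyp2a, Cyp2b and Cyp2c genes. Among those, Cyp2a1 (1.97) and Cyp2a2 (0.42) were called higher, and Cyp2c11 (-0.35) and Cyp2c22 (-0.44) lower.

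Genes that serve P450 enzymes were mixed. The share of all genes called at 100 µM and 24 h was 10.7% higher and 10.4% lower. Of 6 partners, 1 was called at 100 µM and 24 h, Cyb5a, which rose by 0.33 log2 units (limma adjusted p = 5.1e-05). Pgrmc1, a haem-binding partner, gave 0.09 (limma adjusted p = 0.416). Por gave -0.07 there (limma adjusted p = 0.614) but fell at 1 µM and 24 h (-0.48, limma adjusted p = 0.000578) and at 100 µM and 48 h (-0.66, limma adjusted p = 3.32e-07), and its other probe set gave 0.18 at 100 µM and 24 h (limma adjusted p = 0.246). Of 7 haem synthesis genes, 0 rose and 2 fell at 100 µM and 24 h. These were Alas1, the first and rate-limiting enzyme (-0.41, limma adjusted p = 1.17e-05), and Alad (-0.24, limma adjusted p = 0.0179). Of 7 genes of haem breakdown and transport, 4 rose and 0 fell, among them Hmox1, which opens the haem ring (0.33, limma adjusted p = 8.13e-05), and the haem transporter Slc48a1 (0.45, limma adjusted p = 1.8e-05). The list medians were 0.07, -0.09 and 0.29 for partners, synthesis and breakdown, where all genes had 0.04.

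Of 15 liver transcription factors and receptors that regulate P450 genes, a list that holds AhR, its partner Arnt, CAR and PXR, 0 were called higher and 7 lower at 100 µM and 24 h, with a median of -0.24. Among them were the nuclear receptors Nr1h4 (FXR, -0.60, limma adjusted p = 1.27e-05) and Nr1i2 (PXR, -0.45, limma adjusted p = 4.19e-05) and the forkhead factor Foxa3 (-0.69, limma adjusted p = 1.44e-05). Hnf4a, a hepatocyte master regulator, gave -0.39 on its brightest probe set (limma adjusted p = 1.22e-05), while its other probe sets gave 0.02 and -0.18 (limma adjusted p = 0.945 and 0.471). At 1 µM and 24 h, 2 of the 15 were called lower and 0 higher. Among all genes, 10.4% were called lower and 10.7% higher at 100 µM and 24 h, and 2.4% and 1.91% at 1 µM.

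Cyp2e1 is a pericentral gene, so genes of both ends of the liver lobule were set beside it. At 100 µM and 24 h, 10.7% of all genes were called higher and 10.4% lower, and 20.0% and 18.8% of the brighter genes. Of 16 other pericentral genes, 3 rose and 7 fell at 100 µM and 24 h, with a median of -0.10. Glul, glutamine synthetase of the innermost pericentral cells, rose by 0.48 log2 units (limma adjusted p = 1.66e-07), and Cyp1a2, an AhR target, by 1.13 (limma adjusted p = 6.25e-09). Cyp27a1, a sterol hydroxylase (-0.71, limma adjusted p = 2.31e-09), and Rgn (-0.60, limma adjusted p = 2.64e-07) fell. Of 14 periportal genes, 0 rose and 11 fell, with a median of -0.42. These included Fbp1 of gluconeogenesis (-1.36, limma adjusted p = 3.89e-13), Arg1 of the urea cycle (-0.89, limma adjusted p = 4.24e-07), Cdh1 (-0.68, limma adjusted p = 1.79e-08) and Tat (-0.50, limma adjusted p = 2.52e-07). Cyp2e1 acts on ethanol and Cyp4f4 on leukotriene B4. Of 12 enzymes listed for ethanol, leukotriene and related lipid handling, 0 rose and 5 fell, with a median of -0.25. Examples were Acss2 (-0.91, limma adjusted p = 3.52e-13), the epoxide hydrolase Ephx2 (-0.71, limma adjusted p = 6.29e-10), the mitochondrial aldehyde dehydrogenase Aldh2 (-0.36, limma adjusted p = 3.14e-06) and the alcohol dehydrogenase Adh5 (-0.19, limma adjusted p = 0.000597). The leukotriene and lipoxygenase genes of the list, Lta4h (-0.15), Ltc4s (0.13), Alox5 (1.32) and Alox15 (-0.31), were not called.

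**Figure D5:**
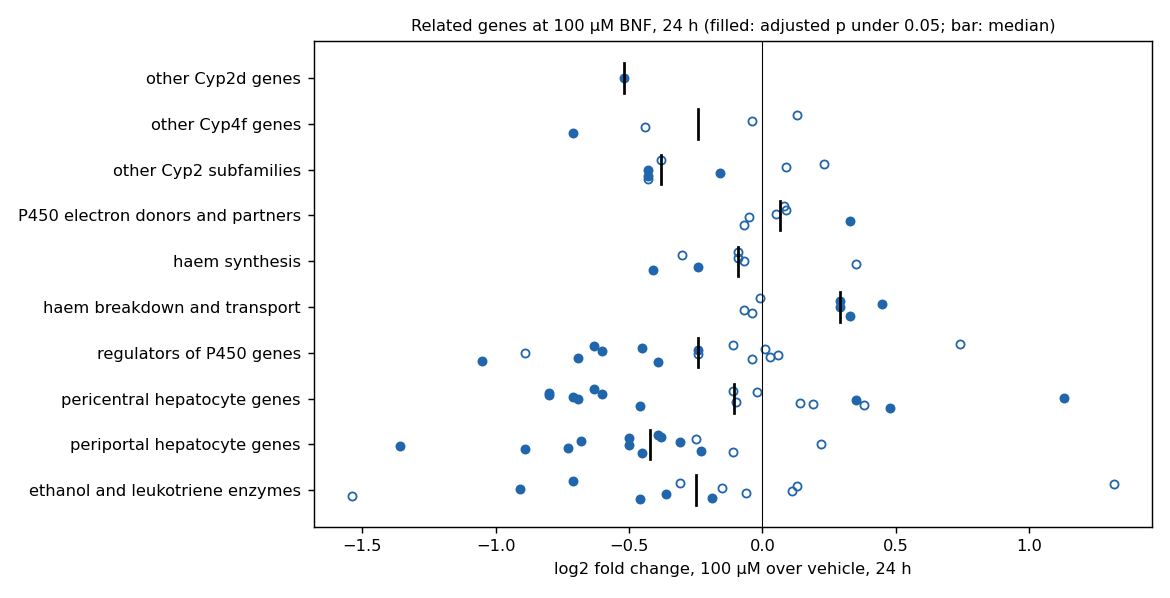
Log2 fold change at 100 µM over vehicle, 24 h (x axis), of every measured gene in 10 related lists (rows), filled where the adjusted p passed 0.05, with a bar at each list's median. Periportal genes have a median of -0.42 and haem breakdown genes one of 0.29.

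Markers of the cell types a hepatocyte preparation can hold were followed beside these changes. At 100 µM, 10.4% of all genes were called lower and 10.7% higher after 24 h, and 8.62% and 8.79% after 48 h. The 9 hepatocyte markers summed to 513314 to 581067 in vehicle and 460165 to 597242 at 100 µM after 24 h, ranges that overlapped. There 1 of 9 was called lower (Apob, -0.66, limma adjusted p = 6.58e-07), while the other Apob probe set gave -0.13 (limma adjusted p = 0.602). After 48 h they summed to 450270 to 542063 in vehicle and 362936 to 449235 at 100 µM, and 5 of 9 were called lower. The 15 stellate cell markers summed to 6763 to 10151 in vehicle, 6062 to 7225 at 1 µM and 5391 to 6535 at 100 µM after 24 h, with 3 of 15 called lower at 100 µM (Lox, -1.32; Rgs5, -0.76; Lrat, -2.08). The list's median log2 fold change there was -0.17. Lrat was dim, with mean signals of 77.4 in vehicle and 18.4 at 100 µM (SE of its log2 fold change 0.704, limma adjusted p = 0.0329). Without Lox, the sums of the other 14 markers were 3560 to 4211 in vehicle and 3326 to 3945 at 100 µM, ranges that overlapped. After 48 h the sums of all 15 were 3761 to 5981 in vehicle, 4528 to 5295 at 1 µM and 3847 to 5123 at 100 µM.

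The 12 Kupffer cell markers summed to 23460 to 27619 in vehicle, 27930 to 30249 at 1 µM and 26828 to 30598 at 100 µM after 24 h, with 1 of 12 called higher at 100 µM (Cd14, 0.24). After 48 h they summed to 19475 to 21819 in vehicle and 16247 to 17395 at 100 µM. The 10 lymphocyte markers summed to 1352 to 1857 in vehicle and 2100 to 2894 at 100 µM after 24 h, with 1 of 10 called higher (Klrb1a, 1.54, limma adjusted p = 8.76e-07). Their median was 0.06, and without Klrb1a the other 9 markers summed to 988 to 1444 and 981 to 1786, ranges that overlapped. After 48 h the 10 summed to 1400 to 1722 in vehicle and 1499 to 2040 at 100 µM. The 8 cholangiocyte markers summed to 12202 to 13287 and 11775 to 12761 in these groups, with 1 of 8 called lower (Slc4a2, -0.36). After 48 h they summed to 13493 to 15097 in vehicle and 11036 to 11726 at 100 µM. The 10 endothelial markers summed to 3202 to 4010 and 3133 to 5480, with 0 of 10 called, and after 48 h to 1896 to 3025 and 2133 to 3262. At 24 h and 100 µM the stellate sums lay wholly below and the lymphocyte sums wholly above those of vehicle, and both overlapped once Lox or Klrb1a was left out. The Kupffer cell sums at 1 µM and 24 h lay wholly above those of vehicle. At 48 h and 100 µM the hepatocyte, Kupffer cell and cholangiocyte sums lay wholly below those of vehicle. There 5 of 9, 2 of 12 and 1 of 8 of these markers were called lower, where 8.62% of all genes and 15.5% of the brighter genes were. Cd14 (geometric mean signal 12262) was the brightest Kupffer cell marker and Epcam (10553) the brightest cholangiocyte marker. Such sums follow their brightest gene most, and these were not redone without Cd14 or Epcam. No marker was listed at 0, and the dimmest means were 14 for Tagln, 12 for Krt7 and 16 for Cd3d. The part of other cell types in the changes of the 5 genes was not tested.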

How the data were processed

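Biotin-labelled RNA from 30 culture wells in 6 groups of 5 was hybridised to Affymetrix rat arrays. The authors deposited 1 linear intensity per probe set and array. MAS5 is the software in the submitters' processing notes. All 30 arrays had a trimmed mean near 1500 (1500.5 to 1500.6 with 2% trimmed at each end), which hides any shift common to most genes. Detection calls, background settings and the genome build were not given in the sources used here. Of 31099 probe sets, 57 controls were left out, 20826 had 1 symbol, 436 several and 9780 none, and 20758 of those with 1 symbol matched the reference gene table (assembly GRCr8, used for names). Where a gene had several probe sets, the one of highest mean log2 signal stood for it.

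The log2 of each deposited intensity was used, with nothing added. A mean per group was fitted with limma 3.58.1 in R 4.3.3 (lmFit, contrasts.fit, eBayes with a mean-variance trend, 24 residual degrees of freedom), adjusted by Benjamini-Hochberg over 14217 genes and called at 0.05. Pair tests used scipy 1.17.1. Tested on data simulated for the comparison of 100 µM with vehicle, 24 h (14217 genes, 200 changed, 10 rounds), this fit recovered 45.1% of changes of 0.5 log2 units and 69.4% of changes of 1.0. No arrays were identical (0 pairs), and all columns belonged to these samples (0 others).

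The 5 genes and all lists were chosen with earlier results of these data known, so they are no independent evidence. Named genes were the 5 genes, all other Cyp2d and Cyp4f genes, a short fixed set (Por, Cyb5a, Pgrmc1, Alas1, Hmox1, Hnf4a and Glul), Cyp1a1, up to 4 called members per list with the smallest adjusted p at 100 µM and 24 h, and the 3 genes most like each of the 5. 1 gene and 1 motif of the plan are not reported here. The dimmest markers and Alb were named after their values were seen. Alternatives were other scalings, an offset of 50, a filter on dim genes, array weights, a fit of 2 groups alone, leaving out each array, and blocks and marker sums added later.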

Additional observations from a re-analysis of the deposited data

Results flagged for a closer look

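The array values of each gene in each group, 30 sets of 5, were searched for an array far from the other 4, a search in which chance alone picks out about 1 set in 20. It found 2. Replicate 2 of the 1 µM, 48 h group had a high Cyp2e1 signal, 2786, with a gap of 0.737 of the group's range on the log2 scale. Without it, the change of Cyp2e1 from 24 to 48 h at 1 µM was -1.49 in place of -1.43 log2 units. Replicate 5 of the 100 µM, 24 h group had a low Cyp2d3 signal, 1445, with a gap of 0.715 of the range. Without it, Cyp2d3 remained called at 100 µM and 24 h (-0.47, limma adjusted p = 0.0025) and against 1 µM (-0.39, limma adjusted p = 0.0291).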

How the results depend on the processing

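All 68 alternative counts of called genes among the 5 stayed within 1.5 times the reported count. Of the tested alternatives for single genes, 338 kept their direction and side of the threshold, 1 lost its call and 1 changed sign. A further 70 values of single genes at 48 h, which carry no test, moved by less than 1 SD. Centring each array on its median took Cyp2f4 at 1 µM and 24 h from 0.07 to -0.01 (limma adjusted p = 0.987), a value not called in either setting, and took the Cyp2d2 difference between doses at 24 h to -0.33 (limma adjusted p = 0.0864). The cause was not tested. Over all settings, leaving out each array included, the log2 fold change at 100 µM and 24 h ran from -1.05 to -0.94 for Cyp2e1, -0.83 to -0.72 for Cyp2d2, -0.65 to -0.47 for Cyp2d3, -1.96 to -1.83 for Cyp4f4 and 0.53 to 0.62 for Cyp2f4. Of all genes, centring cut the calls at 1 µM and 24 h from 612 to 395, those between doses at 24 h from 1097 to 612, those between times at 1 µM from 1926 to 1238 and those at 1 µM and 48 h from 115 to 66. A fit of the 2 groups alone gave 30 at 1 µM and 48 h. Leaving out 1 array gave 406 to 689 calls at 1 µM and 24 h, lowest without replicate 3 of the 1 µM group, and 46 to 153 at 1 µM and 48 h, lowest without replicate 1 of vehicle. Pair counts, an added alternative chosen after seeing the data, were 7 to 9 of 10 at 100 µM (reported 8) and 4 to 6 of 10 at 1 µM (reported 6), so single pairs did lose their call. The titles carry a running number, and each run of 6 holds 1 array of every group, but nothing says that a run shares an animal, batch or day. Of 75 pairs of arrays from the same run, 1 had deviations from the group means that correlated above 0.1 (median r 0.01). With these runs as a replicate block, a fit added after seeing the data, 5, 3, 5 and 4 of the 5 genes were called at 100 µM, at 1 µM, between doses at 24 h and between times at 1 µM, the counts reported without it. Over all genes the blocked fit called 3050 at 100 µM and 643 at 1 µM after 24 h. Another probe set could not be tried, since each of the 5 genes had 1. MAS5 signals carry no detection calls here, so the lowest signals have no stated floor.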
